A study of Mus musculus with 8 samples.

Results

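The 10 genes described here encode 6 receptors of the tumour necrosis factor (TNF) receptor superfamily, Tnfrsf1a, Tnfrsf1b, Ltbr, Tnfrsf21, Tnfrsf11b and Fas, and 4 proteins that act directly below them, Tradd, Fadd, Ripk1 and Casp8. They were taken by name from the 56748 gene IDs of the count tables. The names were picked from the TNF receptor family and its adapters with the values of the Mettl3-RNP against Pulsed comparison in view, so what they show in that comparison is a description, with no test. All samples were bone marrow-derived mast cells (BMMCs), a culture of whole mouse bone marrow grown in IL-3 until mast cells dominate, here from C57BL/6 mice a few weeks of age. In the Mettl3-RNP group (labelled Mettl3 KO) the cells, which were not stimulated, had been electroporated with Cas9 ribonucleoproteins (RNPs) directed at Mettl3, the catalytic subunit of the complex that places N6-methyladenosine (m6A) on mRNA. In the Pulsed group (labelled Mettl3 WT) the cells had been mock transfected and received no Cas9 RNP, and they too were unstimulated. Poly-A RNA of 4 cultures per group was sequenced, and the series text names 4 mice as their source. The transfected cells were a mixed population that could still hold cells with an intact Mettl3 gene, and fewer cells with a transcript could not be told apart from less of it per cell.

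Receptors of this family share cysteine-rich domains outside the cell and bind trimeric ligands of the TNF family. Those with a cytoplasmic death domain, among them TNFR1 (the product of Tnfrsf1a), FAS and DR6 (Tnfrsf21), can assemble adapters with a death domain of their own. TRADD and RIPK1 join TNFR1 and lead mainly to NF-kappaB signalling, while FADD recruits procaspase-8 and leads to apoptosis. LTBR signals through TRAF proteins without a death domain, and osteoprotegerin, encoded by Tnfrsf11b, is a secreted decoy that binds RANKL and TRAIL.

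Candidate m6A letters are shown first, because the groups differ in the enzyme that writes this mark. GGACT is the most frequent form of the consensus in which Mettl3 methylates the central A. Read on the transcript strand of the canonical transcripts of GENCODE vM39 (GRCm39), all 10 genes held at least 1 GGACT, as did 93.8% of 12056 tested protein-coding genes, and 9 of the 10 held 1 in the 3′UTR, against 66.3%. The 25 bases around the copy nearest to the last coding base are shown, 5′ to 3′, with GGACT in capitals, for the 6 genes whose levels differed most between the groups. A match is a description of the letters and was not tested for methylation.
Ltbr, chr6:125284077-125284101, minus strand: ctactcaccaGGACTcacagggtct
Tnfrsf21, chr17:43398817-43398841, plus strand: agaccctcttGGACTctgtgtacag
Tnfrsf11b, chr15:54115223-54115247, minus strand: cacacactggGGACTctgagtccgg
Fas, chr19:34304878-34304902, plus strand: caggttccagGGACTgcttctgtta
Tradd, chr8:105985485-105985509, minus strand: tccatctactGGACTtggagagcat
Fadd, chr7:144134220-144134244, minus strand: gagtcactgtGGACTtgatcacacc

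These copies lay in the last exon of each transcript. In Fadd, Ltbr, Tradd, Tnfrsf11b and Fas they were in the 3′UTR, at 35, 105, 121, 156 and 167 bases after the last coding base. In Tnfrsf21 the nearest copy was coding, 33 bases before it. Ltbr had 5 copies in 2115 bases, a density of 2.36 per kb that exceeded 95.0% of the background transcripts. Tnfrsf11b had 2 copies in 3013 bases, 0.664 per kb, above 25.4% of them. A relation of this density to the difference between the groups was not tested. Fadd had 7 copies and Tradd and Fas 2 each, and the median of the background was 4. Per kb the other members held 2.30 (Tnfrsf1a), 1.79 (Fadd), 1.34 (Fas), 1.15 (Tradd), 1.09 (Casp8 and Tnfrsf21), 1.04 (Ripk1) and 0.814 (Tnfrsf1b) copies, against a background median of 1.04. Fadd was the least spliced member, with 2 exons and 0.255 junctions per kb, above 3.82% of the background, whereas Fas had 9 exons and 5.38 junctions per kb, above 87.3%.

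The 100 bases before the outermost annotated start are shown for Tnfrsf11b, the gene that fell to the lowest share of its Pulsed level, and for Ltbr and Tnfrsf21, whose levels followed each other across the libraries (described later). Capitals mark a GC box, the binding letters of SP1-type factors (GGGCGG on either strand).
Tnfrsf11b, chr15:54142076-54142175, minus strand: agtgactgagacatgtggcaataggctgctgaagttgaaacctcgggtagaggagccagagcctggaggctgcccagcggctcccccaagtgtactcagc
Ltbr, chr6:125290887-125290986, minus strand: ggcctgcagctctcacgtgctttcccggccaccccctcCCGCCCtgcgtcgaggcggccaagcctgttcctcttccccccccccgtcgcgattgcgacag
Tnfrsf21, chr17:43327249-43327348, plus strand: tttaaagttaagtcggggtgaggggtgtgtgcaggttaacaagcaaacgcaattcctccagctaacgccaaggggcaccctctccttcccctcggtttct

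In the 250 bases before the start of the canonical transcript, Ltbr held 1 GC box and 17 CpG dinucleotides. Tnfrsf21 and Tnfrsf11b each held no GC box and 7 CpG. Over all 12056 genes 49.6% of these windows held a GC box and the median was 13 CpG. Tradd had 3 GC boxes, Tnfrsf1b and Ripk1 2 each, Fas and Fadd 1 each, and Tnfrsf1a and Casp8 none. No window of the 10 held TATAAA (7.22% of all), and Fas alone held the AP-1 letters TGACTCA (3.09%), apart from its GC box, each searched on both strands. That letters are missing from this window says nothing of the factor elsewhere.

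Library totals ran from 32643260 to 41351831 counts for Mettl3-RNP cells and from 33942160 to 45324826 for Pulsed cells. Levels are given as CPM, counts per 1000000 counts of the library after scaling by TMM (trimmed mean of log ratios). Mettl3 itself was at 12.3, 9.18, 4.88 and 9.21 CPM in Mettl3-RNP libraries 1 to 4 and at 25.9, 24.5, 11.2 and 26.5 CPM in Pulsed libraries 1 to 4. The targeted transcript was lower in 4 of 4 pairs of the same number, at 40.9% ± 5.81 (SD, n = 4) of the Pulsed level, with a log2 fold change of -1.30 (SE 0.109, edgeR quasi-likelihood test with the replicate number as a block, Benjamini-Hochberg adjusted p = 0.00543). Of its exon bases 34.1% also belong to Tox4 on the opposite strand, and the strand setting of the counting was not stated. Mast cell markers summed to 38460 to 54187 CPM in Mettl3-RNP cells and 43409 to 61098 CPM in Pulsed cells, lower in 4 of 4 pairs. Of the 9, 1 was called lower, the granule protease Cpa3 (log2 fold change -0.37, SE 0.070, edgeR adjusted p = 0.0328). Cpa3 was also the largest part of the sum in every library (16657 to 37159 CPM). By contrast, 5 of the 9 were fitted higher in Mettl3-RNP cells, and the median log2 fold change of the 9 was 0.08. The part of the difference in the marker sum in the members' values was not tested. Neutrophil markers summed to at most 0.398 CPM in any library, with S100a8, S100a9, Elane and Camp at 0.

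TNFR1, the main receptor for soluble TNF, had almost no transcript in these cells, while transcripts of the proteins that act below it were abundant. Tnfrsf1a (ENSMUSG00000030341, chromosome 6, 125325566 to 125339632, plus strand, GRCm39) had 16 counts over the 8 libraries. Libraries 1 to 4 held 1, 6, 3 and 0 counts in the Mettl3-RNP group and 5, 0, 1 and 0 in the Pulsed group. The groups overlapped, the 3 libraries at 0 allowed up to 3 counts each (0.0662 to 0.0919 CPM over the 8 libraries, for counting error only), and the gene was too low to be tested. Levels were compared between genes per kb of exon (CPM divided by the exon length in kb), which put Tnfrsf1a last of the 10 at a mean of 0.0537 in Pulsed cells. Its neighbour Ltbr, 34679 bases away on chromosome 6, stood at 16.2 ± 6.54 (SD, n = 4) per kb.

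On this scale the Pulsed cells placed Casp8 highest, at 95.1 ± 15.4 TPM (SD, n = 4). Tnfrsf21 followed at 69.4 ± 18.9, Ripk1 at 40.6 ± 2.14, Tradd at 27.2 ± 7.68, Fadd at 17.8 ± 8.18 and Ltbr at 16.2 ± 6.54. Below these were Tnfrsf11b at 5.83 ± 3.16, Fas at 3.26 ± 0.969 and Tnfrsf1b at 1.61 ± 0.902 TPM. The initiator caspase and DR6 therefore led the set, and the signalling receptors FAS and TNFR2 were among its lowest transcripts. The ranges of neighbours in this order were apart between Tnfrsf21 and Ripk1, Ripk1 and Tradd, Ltbr and Tnfrsf11b, and Tnfrsf1b and Tnfrsf1a, and overlapped between the others. Over all 8 libraries Casp8 and Tnfrsf21 exceeded 91.6% and 89.9% of the tested genes with a name in TPM, and Tnfrsf1b 22.7%. In Mettl3-RNP cells Tnfrsf11b moved from place 7 to place 9, below Fas and Tnfrsf1b, and Ltbr stood above Fadd. The ranges of both neighbouring pairs overlapped there, with Tnfrsf1b above Tnfrsf11b in 3 of 4 libraries and Ltbr above Fadd in 2 of 4.

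Between the groups, 6 of the 9 members that could be tested were higher in Mettl3-RNP cells in 4 of 4 pairs (Ltbr, Tnfrsf21, Fas, Tradd, Fadd and Ripk1), and Tnfrsf11b was lower in 4 of 4. Of all tested genes 15.7% were higher in 4 of 4 pairs and 16% lower. In the edgeR test (adjusted p of 0.05 at most) 3 members were called higher (Ltbr, Tnfrsf21 and Tradd) and 1 lower (Tnfrsf11b), where 2.35% of all tested genes were called higher and 1.39% lower, 3.74% in all. Since the members were chosen with this contrast known, nothing is read from these counts. Without the replicate block 0 genes were called, and without replicate 2 only 26 genes, of which Tnfrsf11b was the 1 member. The members' median log2 fold change was 0.55, and that of all tested genes was -0.0013.

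**Figure D1:**
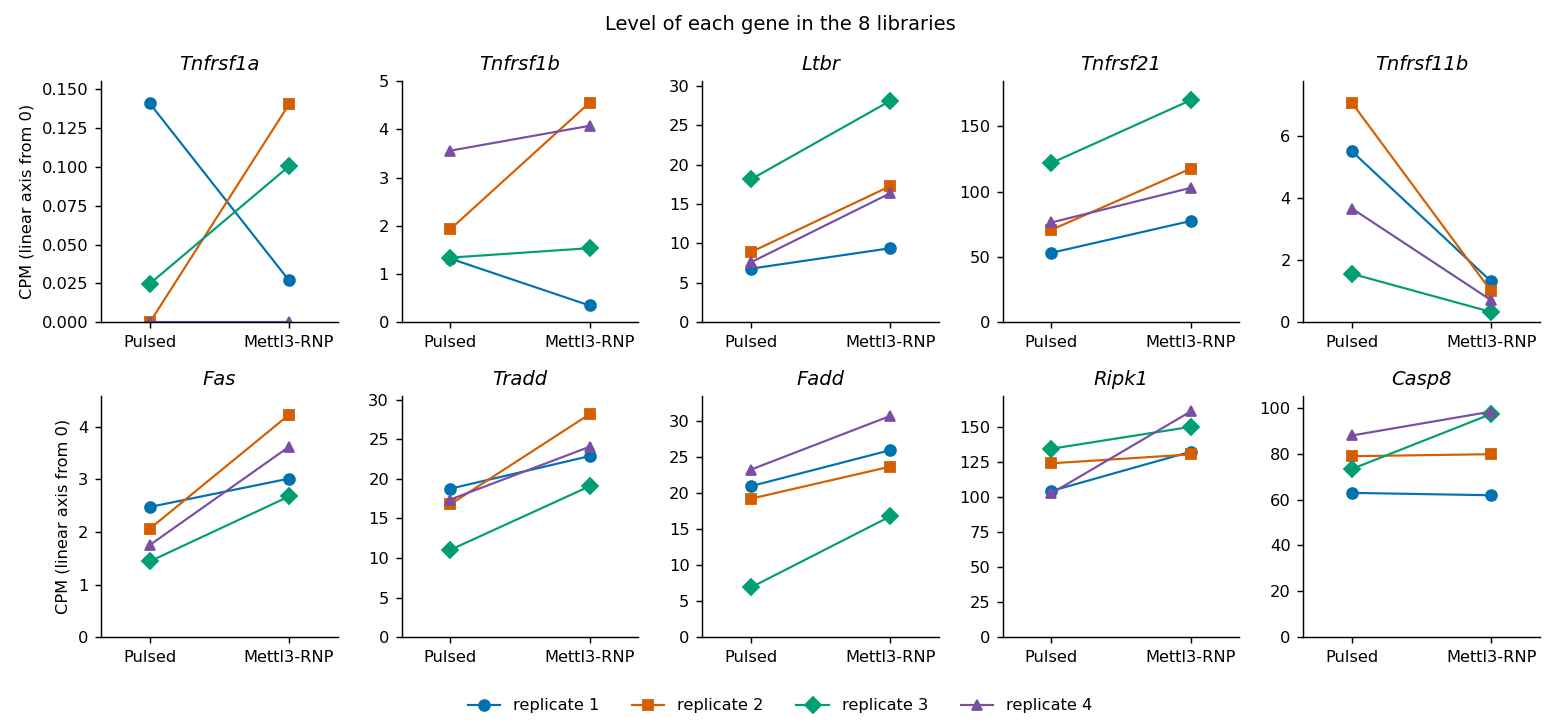
Level of the 10 genes in each library, in CPM on linear axes that start at 0, with Pulsed on the left, Mettl3-RNP on the right and a line joining the libraries of a replicate number. Lines of Ltbr, Tnfrsf21, Fas, Tradd, Fadd and Ripk1 rise in 4 of 4 pairs and those of Tnfrsf11b fall in 4 of 4, while Tnfrsf1a stays at or below 0.14 CPM.

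Ltbr, the receptor for lymphotoxin and LIGHT (the product of Tnfsf14), was a signalling receptor of intermediate level whose difference between the groups ran the same way in every pair. The gene (ENSMUSG00000030339) occupies 125283534 to 125290886 on chromosome 6, minus strand. Mettl3-RNP libraries 1 to 4 had 9.39, 17.3, 28.1 and 16.4 CPM, and Pulsed libraries 1 to 4 had 6.81, 8.90, 18.1 and 7.61 CPM. Each Mettl3-RNP library was above the Pulsed library of its number, but the groups overlapped because Pulsed 3 exceeded 3 of the Mettl3-RNP libraries. The log2 fold change was 0.79 (SE 0.127), and the pairs 1 to 4 differed by 0.46, 0.95, 0.63 and 1.10 on the log2 scale.

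Tnfrsf21, which encodes death receptor 6 (DR6), was the most abundant receptor of the set. It spans 43327349 to 43400081 on the plus strand of chromosome 17 (ENSMUSG00000023915). Its levels were 77.6, 118, 170 and 103 CPM in Mettl3-RNP libraries 1 to 4 and 53.2, 70.9, 122 and 76.5 CPM in the Pulsed ones. Here too Pulsed 3 lay inside the Mettl3-RNP range, above libraries 1, 2 and 4. The differences within pairs were even, at log2 values of 0.54, 0.73, 0.48 and 0.43, and the log2 fold change was 0.55 (SE 0.075). It ranged from 0.48 to 0.60 when 1 replicate was left out.

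Fas, the receptor of FAS ligand and a direct starter of apoptosis, was expressed at a few CPM. It lies on chromosome 19 from 34268001 to 34305173 on the plus strand (ENSMUSG00000024778). The Mettl3-RNP libraries 1 to 4 had 3.01, 4.23, 2.68 and 3.62 CPM (80 to 181 counts), and the Pulsed ones 2.48, 2.06, 1.44 and 1.75 CPM (58 to 88 counts). The lowest Mettl3-RNP library was above the highest Pulsed library. The log2 fold change was 0.81 (SE 0.203), the highest of the 9 genes. Pair 1 differed by 0.28 on the log2 scale and the other pairs by 0.87 to 1.02.

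Tnfrsf1b, which encodes TNFR2, the second TNF receptor, had no direction common to the pairs. Its position is chromosome 4, 144938938 to 144973477, minus strand (ENSMUSG00000028599). It stood at 0.35, 4.56, 1.54 and 4.08 CPM in Mettl3-RNP libraries 1 to 4 and at 1.32, 1.93, 1.34 and 3.56 CPM in Pulsed libraries 1 to 4. Mettl3-RNP 1 held 13 counts against 47 in Pulsed 1, and Mettl3-RNP 2 held 195 against 74 in Pulsed 2, so the log2 differences ran from -1.77 in pair 1 to 1.21 in pair 2. The log2 fold change was 0.08 with an SE of 0.43, and its sign turned without replicate 2 (-0.36).

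Tnfrsf11b was the member with the largest difference, and the only one that was lower. The gene for osteoprotegerin occupies 54114015 to 54142075 on chromosome 15, minus strand (ENSMUSG00000063727). Mettl3-RNP libraries 1 to 4 had 1.32, 1.00, 0.33 and 0.71 CPM, from 49, 43, 10 and 25 counts. Pulsed libraries 1 to 4 had 5.51, 7.08, 1.57 and 3.67 CPM, from 196, 271, 63 and 134 counts. The groups did not overlap, and Pulsed 3, the lowest Pulsed library, was close to Mettl3-RNP 1. Mettl3-RNP libraries kept 23.9%, 14.2%, 21.4% and 19.4% of the Pulsed level of their number, 19.7% ± 4.12 on average (SD, n = 4), and the log2 fold change was -2.38 (SE 0.214).

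Osteoprotegerin is best known from stromal and bone-lining cells. The 8 stromal markers (Col1a1, Col1a2, Col3a1, Dcn, Lum, Pdgfra, Pdgfrb and Postn) summed to 2.78 to 5.37 CPM in Mettl3-RNP cells and 3.03 to 3.59 CPM in Pulsed cells, with Dcn at 0 in every library. That sum was not lower in Mettl3-RNP libraries as a group, and neither of the 2 stromal markers that could be tested was called. Pdgfrb made up most of the sum in every library (1.87 to 3.74 CPM), and no other stromal marker exceeded 42 counts, so the sum says little of stromal cells. The 5 basophil markers (Mcpt8, Prss34, Cd200r3, Il18rap and Ifitm1) summed to 1795 to 2420 and 2244 to 3322 CPM, with 2 called lower, Il18rap and Ifitm1, and 4 of the 5 lower in 4 of 4 pairs. Ifitm1 made up most of the sum (1004 to 2655 CPM), and Cd200r3 (499 to 819 CPM) was higher in 4 of 4 pairs. The 6 erythroid markers summed to 2.27 to 3.58 and 3.68 to 5.12 CPM, which did not overlap, with Hba-a2 at 0, and none of the 2 tested was called. The 8 macrophage markers summed to 3.79 to 9.90 and 6.22 to 10.4 CPM, with Adgre1 called lower, and the 6 T and B cell markers summed to 0.798 to 1.56 and 0.164 to 2.62 CPM, with Cd8a at 0. The part of these cells in the members' values was not tested.

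Of the 4 adapters and effectors, Tradd had the largest log2 fold change. TRADD is the death domain adapter that binds TNFR1. Its gene (ENSMUSG00000031887) is at 105984883 to 105996354 on chromosome 8, minus strand. Mettl3-RNP libraries 1 to 4 had 22.9, 28.2, 19.1 and 24.1 CPM, and the Pulsed libraries 18.8, 16.8, 11.0 and 17.4 CPM. The groups did not overlap, although Mettl3-RNP 3 and Pulsed 1 were close. The log2 fold change was 0.57 (SE 0.108), with pairs from 0.29 to 0.79. It ranged from 0.50 to 0.63 when 1 replicate was left out.

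Fadd, the adapter that links FAS to caspase-8, was also higher in 4 of 4 pairs. It occupies 144131055 to 144136211 on chromosome 7, minus strand (ENSMUSG00000031077). Its levels were 25.9, 23.7, 16.8 and 30.7 CPM in Mettl3-RNP libraries 1 to 4 and 21.0, 19.2, 6.91 and 23.3 CPM in Pulsed libraries 1 to 4. Pair 3 differed by 1.27 on the log2 scale, and the other pairs by 0.30 to 0.40. The groups overlapped, and the log2 fold change was 0.55 (SE 0.163), or 0.33 without replicate 3. Of its exon bases 6.11% are shared with the lncRNA Faddos and 8.66% with the lncRNA Gm72893, both on the opposite strand.

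Ripk1 encodes the kinase that serves as a scaffold for NF-kappaB signalling and, when caspase-8 is blocked, as a starter of necroptosis. It spans 34186141 to 34221130 on the plus strand of chromosome 13 (ENSMUSG00000021408). Mettl3-RNP libraries had 132, 130, 150 and 161 CPM, and Pulsed libraries 104, 124, 134 and 103 CPM, in the order of replicate numbers. Pulsed 3 was above Mettl3-RNP 1 and 2, and pair 2 differed by only 0.07 on the log2 scale, against 0.65 in pair 4. The log2 fold change was 0.31 (SE 0.101), or 0.20 without replicate 4. A processed pseudogene, Gm17084, covers 4.65% of its exon bases on the same strand.

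Casp8, the protease that FADD activates, had the highest level per kb and a difference near its error. It lies on chromosome 1 from 58834375 to 58886665 on the plus strand (ENSMUSG00000026029). Levels were 61.9, 79.8, 97.3 and 98.4 CPM in Mettl3-RNP libraries 1 to 4 and 62.9, 78.9, 73.4 and 88.0 CPM in Pulsed libraries 1 to 4. Pairs 1 and 2 differed by -0.02 and 0.02 on the log2 scale and pair 3 by 0.41. The log2 fold change was 0.14 (SE 0.087), or 0.049 without replicate 3, and the groups overlapped.

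In all, 3 members had groups that did not overlap, Tnfrsf11b, Fas and Tradd, where 3.23% of all tested genes did not overlap in either direction. The other 6 tested members overlapped.

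**Figure D2:**
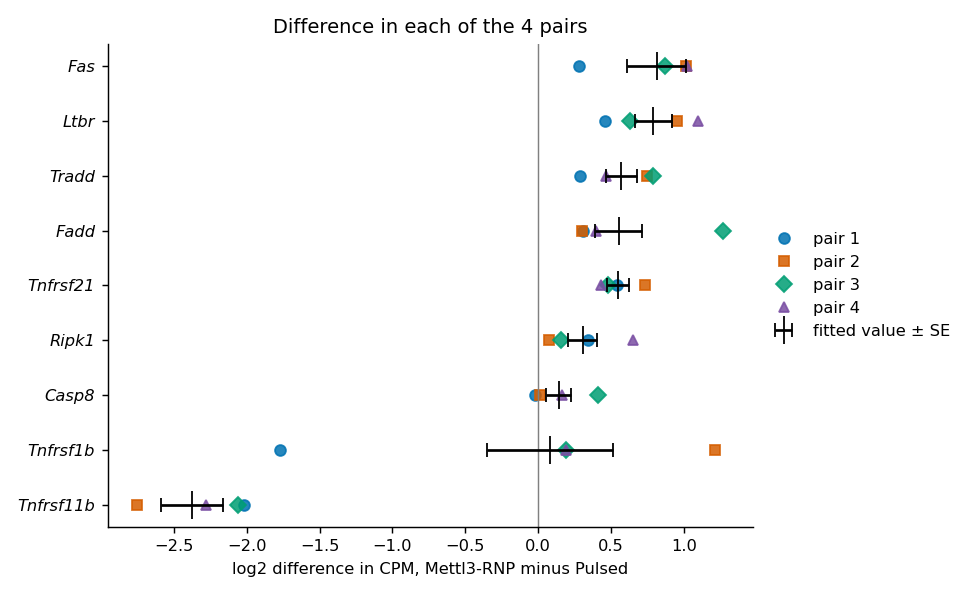
Log2 difference in CPM, Mettl3-RNP minus Pulsed, in each of the 4 pairs (coloured points) and the fitted log2 fold change with its standard error (black), for the 9 genes that could be tested. Tnfrsf11b lies at -2.02 or below in every pair, Tnfrsf1b spreads from -1.77 to 1.21, and the pair 3 value of Fadd, 1.27, is apart from its other pairs.

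Differences between the replicate numbers were tested separately. The choice of members paired libraries by this number but used only the difference between the groups. With the group in the model, 7 of the 9 tested members differed between the replicate numbers with an adjusted p no higher than 0.05 (edgeR quasi-likelihood test of the block terms), and 53.9% of all tested genes did. Adjusted p was 0.000432 for Tnfrsf21, 0.00128 for Ltbr, 0.00391 for Tnfrsf11b, 0.0108 for Fadd, 0.0220 for Casp8, 0.0426 for Tradd and 0.0486 for Tnfrsf1b in this edgeR test. Fas (adjusted p = 0.339) and Ripk1 (adjusted p = 0.418) did not pass. Without replicate 3 the number that passed fell to 2, Tnfrsf21 and Casp8.

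Replicate 3 stood apart for several members in both groups. Mean CPM of the pair was 8.10, 13.1, 23.1 and 11.99 for Ltbr in replicates 1 to 4, so that the highest was 2.85 times the lowest. For Tnfrsf21 the means were 65.4, 94.3, 146 and 89.7 CPM, again highest in replicate 3. Tnfrsf11b and Fadd had their lowest means there, 0.950 CPM (against 2.19 to 4.04) and 11.8 CPM (against 21.4 to 27.0). The spread was widest for Tnfrsf1b, 4.57-fold between replicates 4 and 1, and narrowest for Ripk1, 1.202-fold. Of the variance of log2 CPM, the replicate number held 63.0% for Ltbr, 68.8% for Tnfrsf21, 67.5% for Fadd, 78.9% for Casp8 and 74.7% for Tnfrsf1b, and the group held most of it for Tnfrsf11b (69.8%), Fas (69.4%), Tradd (55.9%) and Ripk1 (51.9%). Over all tested genes the medians were 78.3% for the replicate number and 5.68% for the group.

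Some members followed each other closely over the 8 libraries, which share their mice and their groups, so these correlations are a description. Pearson's r of log2 CPM was 0.973 between Ltbr and Tnfrsf21, which rose and fell together between replicate numbers as well as between the groups. It was 0.950 between Fas and Tradd and 0.865 between Tradd and Fadd, both adapters of the death domain kind. Tnfrsf11b ran opposite to Ltbr (-0.874) and to Tnfrsf21 (-0.864). Ltbr and Tradd, both higher in 4 of 4 pairs, were not related over the libraries (0.0319). Among all tested genes those most like Tnfrsf11b were Tmem237 (r = 0.975), Mettl3 (0.969) and Ptprcap (0.965). Pulsed 3, which had the lowest Tnfrsf11b of its group, also had the lowest Mettl3 of its group, 11.2 CPM. Those most like Fas were Coro7 (0.981), Naglu (0.981) and Dnase2b (0.980).

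**Figure D3:**
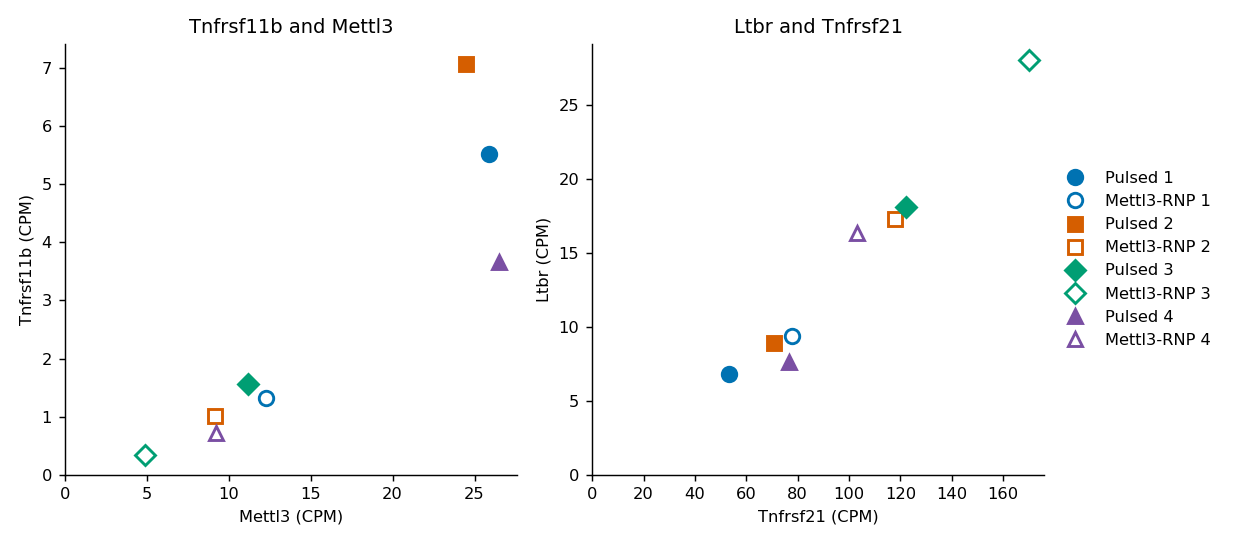
CPM of Tnfrsf11b against Mettl3 (left) and of Ltbr against Tnfrsf21 (right) in the 8 libraries, on linear axes from 0, with filled marks for Pulsed, open marks for Mettl3-RNP and shape and colour for the replicate number. Pulsed 3 (11.2 CPM of Mettl3, 1.57 CPM of Tnfrsf11b) lies beside the Mettl3-RNP libraries in the left panel, and the right panel runs from Pulsed 1 (53.2 and 6.81 CPM) to Mettl3-RNP 3 (170 and 28.1 CPM).

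The other genes of the pathway were read from lists of 22 further receptors, 26 signalling proteins, 21 death effectors and 7 ligands, tested in the same edgeR fit. Of the receptors, 12 could be tested and 1 was called, Tnfrsf18, which encodes the costimulatory receptor GITR. It fell from 23.1 to 16.7 CPM on average, to 72.1% ± 4.38 (SD, n = 4) of the Pulsed level, in 4 of 4 pairs (log2 fold change -0.47, SE 0.084, edgeR adjusted p = 0.0298). It was not called without replicate 1, 2 or 4 (adjusted p from 0.0719 to 0.151). The most abundant of the others had log2 fold changes of -0.11 for Tnfrsf13b (adjusted p = 0.651), -0.07 for Relt (0.686) and -0.25 for Ngfr (0.510). The 11 that were not called ranged from -1.23 to 0.99, and the median of the 12 was -0.09. Cd27, Cd40, Tnfrsf13c, Tnfrsf17, Tnfrsf19 and Tnfrsf25 had fewer than 10 counts in every library. Tnfrsf11a encodes RANK, the receptor whose ligand osteoprotegerin intercepts, and was looked at after its values were known. It had a log2 fold change of -0.99 (adjusted p = 0.1101) and was lower in 3 of 4 pairs, and it was called without replicate 4 (adjusted p = 0.00785), with no filter (adjusted p = 0.00552) and by the DESeq2 Wald test (adjusted p = 0.0410).

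Of the 7 ligands, 5 could be tested and 1 was called. Tnfsf14, which encodes LIGHT and binds LTBR, fell from 61.7 to 40.9 CPM, to 67.1% ± 11.3 (SD, n = 4) of the Pulsed level, in 4 of 4 pairs (log2 fold change -0.59, SE 0.100, edgeR adjusted p = 0.0272). It was not called without replicate 1 (adjusted p = 0.0645) or 2 (adjusted p = 0.117). Tnf was at 11.4, 41.7, 594 and 6.78 CPM in Mettl3-RNP libraries 1 to 4 and at 15.2, 8.25, 97.1 and 4.96 CPM in Pulsed libraries 1 to 4. Replicate 3 was far above the others in both groups, and pair 1 differed in the opposite direction from pairs 2, 3 and 4. Its log2 fold change was 1.36 (SE 0.496, adjusted p = 0.154), and Tnf was called without replicate 1 (adjusted p = 0.0388) and with no filter on low counts (adjusted p = 1.31e-18). Tnfsf10, which encodes TRAIL, had a log2 fold change of -0.33 (adjusted p = 0.155) and Lta, lymphotoxin alpha, one of -0.55 (adjusted p = 0.339). Fasl, the ligand of FAS, had fewer than 10 counts in every library, and the median of the 5 tested was -0.33.

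None of the 26 signalling proteins below TNFR1 and LTBR was called by edgeR. An unadjusted p under 0.05 was found for 7, where 22.5% of all tested genes had one, and the DESeq2 Wald test called 5. Their median log2 fold change was 0.05. The most abundant were Tab2 (0.19, adjusted p = 0.200) and Map3k7 (0.13, adjusted p = 0.374), subunits of the TAK1 kinase complex, and Rbck1 (-0.09, adjusted p = 0.440), a subunit of the linear ubiquitin ligase. None of the 20 death effectors tested was called by edgeR, with 8 at an unadjusted p under 0.05 (22.5% of all tested genes) and 1 called by the DESeq2 Wald test. Their log2 fold changes ranged from -0.32 to 0.43 with a median of 0.08. Cflar, the inhibitor of caspase-8, had a log2 fold change of 0.07 (adjusted p = 0.628) and Xiap, an inhibitor of apoptosis, one of -0.0074 (adjusted p = 0.966). Zbp1 had fewer than 10 counts in every library.

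**Figure D4:**
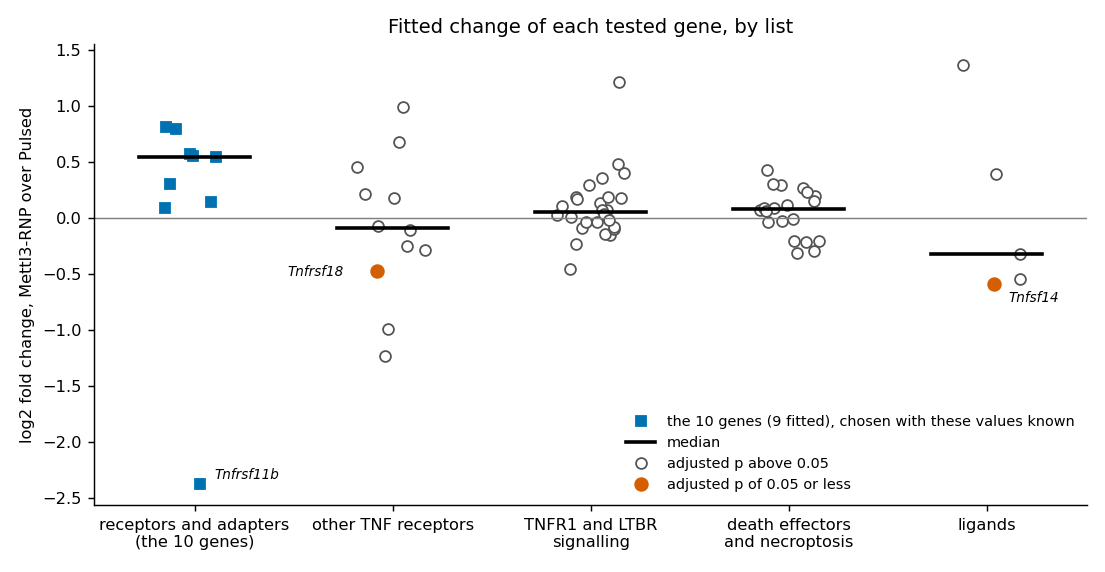
Fitted log2 fold change, Mettl3-RNP over Pulsed, of each tested gene of the 5 lists, spread sideways only to keep points apart, with squares for the 10 genes (9 fitted, chosen with these values known), filled circles for other genes called, open circles for the rest and a bar at the list's median. The squares run from -2.38 (Tnfrsf11b) to 0.81 (Fas), and the filled circles are Tnfrsf18 (-0.47) and Tnfsf14 (-0.59).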

How the data were processed

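RNA-seq libraries of 4 Mettl3-RNP and 4 Pulsed BMMC samples were grouped by their titles. The deposited values were raw counts per gene. Per the labels and the study's methods, the authors aligned paired-end reads to GRCm39 with HISAT2 2.2.1 and counted them with featureCounts 2.0.1, and FastQC 0.11.9 is named in the submitters' processing notes. Strand and multimapping settings were not given in the sources used here, and the methods name a batch correction after counting without naming the batch.

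GENCODE vM39 named 56017 of 56748 IDs (98.7%). The rest took 0.113% of a library's counts or less. Genes were kept by filterByExpr (a count of about 10 in the smaller group), which left 14942. Groups were compared by edgeR 4.0.16 (TMM, glmQLFit, glmQLFTest, R 4.3.3) blocked on the replicate number, with Benjamini-Hochberg adjustment over all tested genes. Genes with an adjusted p up to 0.05 were called. The standard error of a log2 fold change came from its test statistic. A prior count of 2 was added for log2 CPM. The fit was tested on simulated data. Totals per library (32643260 to 45324826) limit the precision of members with few counts. No molecular identifiers are described for these libraries, so reads are not independent molecules and intervals cover counting error only.

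The pairing of equal numbers with mice is inferred from the series text. After subtraction of group means, libraries with the same number correlated at 0.825, 0.489, 0.879 and 0.765 over 11985 genes averaging 1 CPM or more, against at most 0.183 for different numbers. Over all tested genes pair 2 correlated at 0.0738, below the highest value for different numbers, 0.249. No pair of libraries within a group came near sampling noise (lowest chi-square per degree of freedom 59.8), so each was counted as 1 sample.

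The 10 genes and the lists were chosen with earlier results of these data known. Named from the other lists were the genes called, the 3 with the highest mean CPM among those not called and those under 10 counts in every library. The result of 1 gene that this rule names is not reported here, although it is included in the counts. For the members with the highest and lowest log2 fold change the 3 genes with the highest Pearson's r were named. Alternatives were no block, DESeq2 size factors in edgeR, no filter, at least 10 counts in every library, the DESeq2 1.42.0 Wald test and leaving out each replicate.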

Additional observations from a re-analysis of the deposited data

How the results depend on the processing

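The replicate block decided the calls. Without it 0 genes were called (579 at an unadjusted p under 0.05, smallest adjusted p 0.427), and Mettl3 had a log2 fold change of -1.31 with an adjusted p of 0.744, while the members kept their directions. Calls over all genes numbered 559 as reported, 993 with no filter, 959 with at least 10 counts in every library, 1449 by the DESeq2 Wald test and 26 to 383 when 1 replicate was left out (26 without replicate 2). Members called numbered 4 as reported, 0 without the block, 6 with no filter (Fas and Fadd added), 5 with at least 10 counts in every library (Fas added), 7 by DESeq2 (Fas, Fadd and Ripk1 added) and 1 to 4 when 1 replicate was left out. Tnfrsf11b was the 1 left without replicate 2, and 2 were left without replicate 1. Tradd was not called without replicate 1, 2 or 3, Tnfrsf21 without replicate 1 or 2 and Ltbr without replicate 2. Tnfrsf1b had a log2 fold change of 0.08 as reported and of -0.36 to 0.52 when 1 replicate was left out, with a turn to -0.36 without replicate 2 and to -0.0060 without replicate 4. Other receptors called numbered 1 as reported, 0 without the block, 5 with no filter, 4 by DESeq2 and 0 to 2 when 1 replicate was left out. Tnfrsf18 was lost without replicate 1, 2 or 4, while Tnfrsf11a was called without replicate 4 and Eda2r without replicate 3. No filter and DESeq2 both added Tnfrsf9, Tnfrsf11a and Eda2r, and no filter also Tnfrsf12a. Signalling proteins called went from 0 to 1 with no filter, 1 with at least 10 counts in every library and 5 by DESeq2, and death effectors from 0 to 1 by DESeq2. Ligands called went from 1 to 0 without the block, 2 with no filter and 0 to 1 when 1 replicate was left out, with Tnfsf14 lost without replicate 1 or 2 and Tnf called without replicate 1. Members that differed between replicate numbers went from 7 to 2 without replicate 3 and numbered 2 to 7 over the replicates left out. The cause of these changes was not tested. DESeq2 size factors left every member on its side of the threshold. Low counts limit Tnfrsf1a, Tnfrsf1b, Tnfrsf11b and Fas.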
